A study of Mus musculus with 2 samples.

Results

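Cluster 11 is read here as the group of cycling macrophages in single cell RNA-seq of dystrophic mouse muscle. It held 686 of the 17813 cells in the deposited table, 281 of 7156 from mdx muscle and 405 of 10657 from cKO muscle. Its members were chosen by the deposited cluster number, and the cluster was singled out for its high cell cycle scores. Clusters come from the cells' own expression, so the scores, UMIs (unique molecular identifiers, each tagging a single transcript) and genes below describe the cluster, and no test of it against other cells was run.

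The mdx mice lack dystrophin through the Dmd mdx allele (strain C57BL/10ScSn-Dmd mdx/J) and stand as controls. The cKO mice carry the same allele, a floxed Spp1 gene and Cre recombinase from the Lyz2 locus, which removes exons 2 and 3 of Spp1 in myeloid cells. Lyz2 is known to be active in neutrophils and monocytes as well as macrophages, and the extent of the deletion in each cell type was not analysed here. The study's methods describe males only, aged 3 months in the text and 12 weeks in a legend, with 3 mice per genotype and limb muscle and diaphragm pooled. Each genotype gave 1 library in which the mice cannot be told apart. There is therefore no spread between mice, and every interval is a 95% interval that covers counting error only. The sources used here do not say whether the control mice carried the floxed allele, and the genotype label of that sample reads as wild type.

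Proliferating macrophages copy their DNA in S phase and divide after G2 in mitosis (M). In S phase the helicase genes of the Mcm family and Pcna, the sliding clamp of DNA polymerase, are typically high. In G2 and mitosis Top2a, which untangles chromosomes, Cdk1, the kinase that starts mitosis, and Mki67, a coat protein of mitotic chromosomes, are typically high. Seurat sums such genes into an S score and a G2M score, each relative to control genes. In the table a cell was called G1 where both scores were below 0 and otherwise took the phase of the higher score, a rule that fitted 17813 of 17813 cells. In injured and dystrophic muscle, macrophages arise both from recruited monocytes and by local division.

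The cluster's name could not be checked against Adgre1, Csf1r, C1qa, Lyz2 and Cd68, the genes that mark macrophages, because expression values of single genes were not analysed here. The name rests on cell numbers, with clusters 1, 3, 4, 11 and 12 together holding 1376 mdx and 4781 cKO cells, the sums by which these clusters were matched to the macrophages of the supporting data. The study's text gives a smaller number of macrophages for both genotypes, which these sums do not match. Of the cell barcodes, 20 occurred in both libraries. Such a barcode was carried by 2 cells of cluster 11, and none by members of the cluster in both libraries. No doublets were called, and their part in the high UMI numbers below was not tested.

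All members of cluster 11 were called S or G2M. None was called G1 in either library, and a count of 0, taken as up to 3 counts of the total, allows a G1 share of up to 1.07% in mdx and 0.741% in cKO (exact upper limits 1.30% and 0.907%). In mdx, 161 cells were called G2M (57.3%, exact interval 51.3 to 63.2) and 120 were called S (42.7%, 36.8 to 48.7). In cKO, 215 cells were called G2M (53.1%, 48.1 to 58.0) and 190 were called S (46.9%, 42.0 to 51.9). G2M calls thus outnumbered S calls by 1.34 to 1 in mdx (1.05 to 1.71) and by 1.13 to 1 in cKO (0.927 to 1.38). Of these, only the mdx interval lies above 1. With calls kept only above a score of 0.3 both did, at 1.72 (1.31 to 2.26) and 1.37 (1.10 to 1.70). That cut kept 88 of 120 S and 151 of 161 G2M calls in mdx, and 149 of 190 and 204 of 215 in cKO. It removed more S than G2M calls, so the higher ratios follow from the cut and add no support for a G2M excess. Each call takes the higher of 2 scores with unlike ranges. S scores reached 0.800 in mdx and 0.879 in cKO, while G2M scores reached 1.21 and 1.39. How far the ratios of calls depend on these ranges was not tested.

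The balance did not differ between the genotypes beyond counting error. The G2M share was 4.21 percentage points lower in cKO (difference of cKO minus mdx -4.21, interval -11.8 to 3.35), which lies within counting error. Divided by the mdx value, the cKO value was 0.927 for the G2M share (0.808 to 1.06) and 1.10 for the S share (0.926 to 1.30). With cKO cells weighted to the UMI quintiles of mdx members, these ratios were 0.919 and 1.11. An interval that includes 1 does not show that the genotypes have the same balance.

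**Figure D1:**
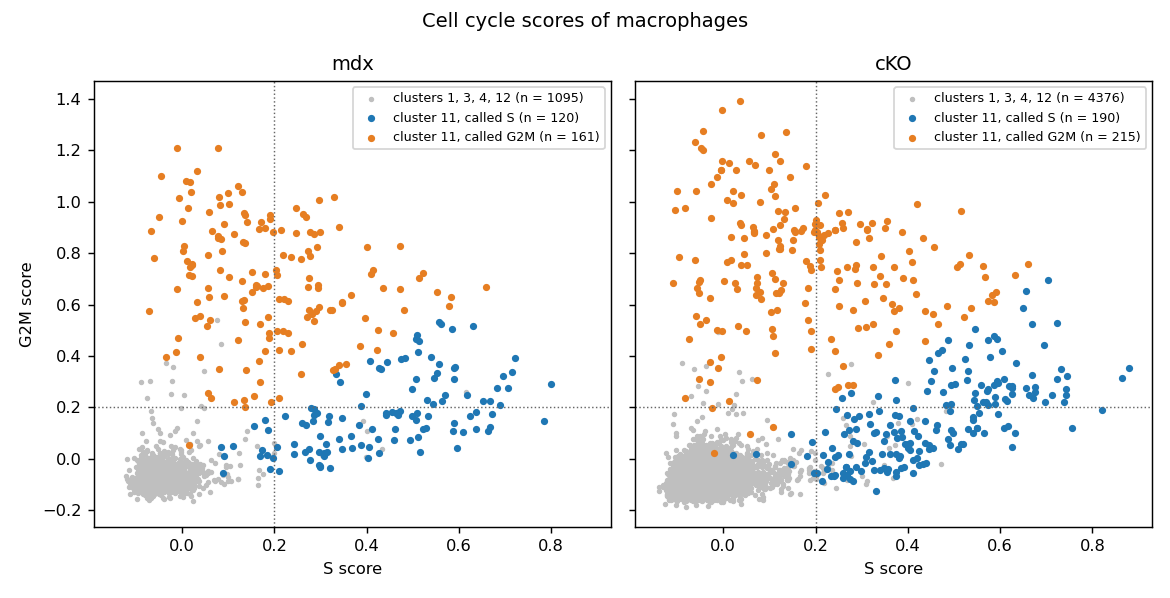
S score (x axis) against G2M score (y axis) of single macrophages in mdx and cKO, with cluster 11 coloured by phase call, the 4 other macrophage clusters in grey and dotted lines at 0.2. Cluster 11 spreads along an arc from high S to high G2M scores, and 268 of 281 mdx and 394 of 405 cKO members have a score above 0.2.

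On the plane of both scores the members formed an arc rather than separate groups. Cells called S had a median S score of 0.443 in mdx (quartiles 0.299 and 0.556) and 0.441 in cKO (0.326 and 0.573). Their G2M scores had medians of 0.155 and 0.119. In cells called G2M the G2M score centred on 0.674 in mdx (0.541 and 0.876) and on 0.760 in cKO (0.609 and 0.910), beside S scores of 0.169 and 0.151. The median G2M score of these cells was thus higher in cKO, the library with fewer UMIs per cell, while the quartile ranges overlapped widely. Across members the scores ran against each other, with a Pearson correlation of -0.450 over the 281 mdx cells and -0.452 over the 405 cKO cells. Both scores are read from the same UMIs of each cell. The cluster was singled out for high scores, so cells low on both scores are scarce by that choice. A lack of such cells tends to make a correlation negative. The correlation therefore describes the selected members only, and no conclusion on how the programmes relate is drawn from it.

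Many members had high values of both scores. Both scores exceeded 0.2 in 108 mdx cells (38.4%, 32.7 to 44.4) and 162 cKO cells (40.0%, 35.2 to 45.0). The S score alone exceeded it in 67 mdx cells (23.8%) and 111 cKO cells (27.4%). G2M alone was above it in 93 (33.1%) and 121 cells (29.9%). Cells above 0.2 on both scores were the deepest, with median UMIs of 17256 in mdx and 11582.5 in cKO. The medians were 15273 and 9958 for S alone, and 15088 and 9153 for G2M alone. Whether depth or doublets had a part in the high values of both scores was not tested. Of the cells above 0.2 on both scores, 41 in mdx and 72 in cKO were called S, and 67 and 90 were called G2M, so cells with both scores high stood on either side of the call. Close to the line between the calls, 22 mdx and 19 cKO cells had scores less than 0.05 apart.

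Few members lay low on both scores. Neither score exceeded 0.2 in 13 mdx cells (4.63%, 2.49 to 7.78) and 11 cKO cells (2.72%, 1.36 to 4.81). Such cells were called S in 12 of 13 cases in mdx and 7 of 11 in cKO. The lowest member reached 0.0548 on its higher score in mdx and 0.0221 in cKO, and the highest reached 1.21 and 1.39. S scores had the smaller range, up to 0.800 in mdx and 0.879 in cKO. A threshold of 0.2 or 0.3 on the higher score removed more S than G2M calls in each library. At 0.1 the loss in cKO was equal, with 188 of 190 S and 213 of 215 G2M calls kept.

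The other macrophage clusters held phase calls too, but with scores close to 0. Clusters 1, 3, 4 and 12 together were 78.1% G1 in mdx (855 of 1095) and 75.3% in cKO (3295 of 4376). Among these clusters together S calls outnumbered G2M calls, 156 to 84 in mdx and 837 to 244 in cKO, the reverse of cluster 11. The exception was cluster 1 in mdx, with 55 G2M and 50 S calls. Only 6 of those 156 mdx S calls (3.85%, 1.42 to 8.18) and 34 of the 837 in cKO (4.06%, 2.83 to 5.63) had a score above 0.2. In cluster 11 it was 108 of 120 (90.0%, 83.2 to 94.7) and 183 of 190 (96.3%, 92.6 to 98.5). For G2M calls the shares above 0.2 were 14.3% in mdx (12 of 84) and 6.56% in cKO (16 of 244) outside the cluster, against 99.4% (160 of 161) and 98.1% (211 of 215) within it. As the cluster was singled out for its scores, these contrasts follow from that choice.

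Taken one by one, cluster 4 had the smallest share of G2M calls, 2.48% in mdx (1.00 to 5.05) and 3.05% in cKO (2.12 to 4.23). Cluster 3 stood at 4.21% and 4.29%. Cluster 12 had 7.56% and 6.30%, and cluster 1 had 12.9% in mdx (9.85 to 16.4) and 8.07% in cKO (6.80 to 9.50). S calls ranged from 11.7% to 18.6% over these 4 clusters in mdx and from 17.0% to 21.3% in cKO.

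**Figure D2:**
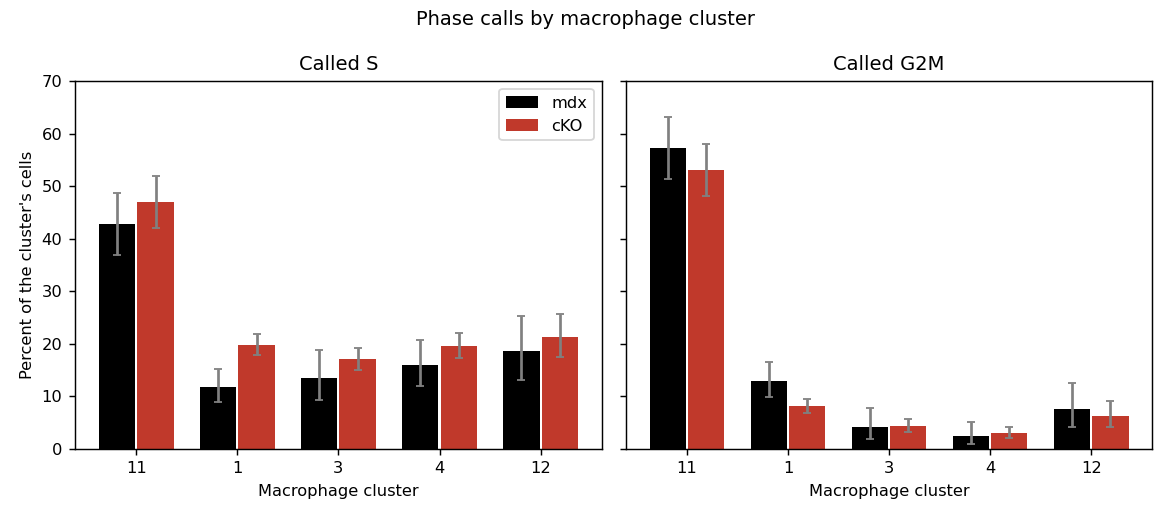
Percent of each macrophage cluster's cells (y axis) called S (left) or G2M (right) in mdx (black) and cKO (red), by cluster (x axis), with whiskers for exact 95% intervals. In cluster 11 42.7% (mdx) and 46.9% (cKO) are S and 57.3% and 53.1% are G2M, and no other macrophage cluster exceeds 21.3% for either call.

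Nearly all high-scoring macrophages fell in cluster 11. The cluster was singled out for these same scores, so the shares below describe that choice and are not a separate result. Of mdx macrophages, 286 had a score above 0.2, and 268 of these were in the cluster (93.7%, 90.2 to 96.2). In cKO it was 394 of 444 (88.7%, 85.4 to 91.5). Among all macrophages such cells made up 20.8% in mdx (18.7 to 23.0) and 9.29% in cKO (8.48 to 10.1), close to the cluster's own 20.4% and 8.47%. At a threshold of 0.3 they were 18.3% and 7.91%. The 18 mdx cells outside the cluster lay mostly in clusters 12 (9 cells) and 1 (7 cells), with 2 in cluster 4 and 0 in cluster 3. The 50 cKO cells outside it lay in clusters 12 (17), 3 (16), 1 (11) and 4 (6). Their scores were lower than the members', the higher score having a median of 0.349 (mdx) and 0.293 (cKO) beside 0.569 and 0.596 for the cluster. Outside the cluster S was the call of 6 of 18 in mdx and 34 of 50 in cKO.

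Among all cell types, cluster 11 was also the largest holder of cells above 0.2, with 268 of 764 in mdx (35.1%) and 394 of 902 in cKO (43.7%). Cluster 13, read here as the cycling neutrophil lineage, came next with 239 and 158 cells. It leaned much further to G2M, at 79.1% in mdx (73.5 to 84.0) and 79.1% in cKO (72.1 to 85.1), or 3.86 (2.82 to 5.38) and 3.91 (2.65 to 5.92) G2M cells per S cell. In cluster 11 the values were 1.34 in mdx and 1.13 in cKO, and the 2 clusters were not tested against each other. Cluster 13 is taken as another cell type, without a check of marker genes, and had median UMIs of 11969 in mdx and 7209 in cKO.

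At the median, members held more UMIs than cells of any other macrophage cluster. UMIs per cell had a median of 15601 in mdx (quartiles 12031 and 20295, range 704 to 47289) and 10102 in cKO (7369 and 14415, range 524 to 45992). The 4 other clusters together had medians of 7353 and 5237.5, so the ratio was 2.12 in mdx and 1.93 in cKO. Cluster 4 came nearest, with medians of 10262.5 and 7251.5 and ratios of 1.52 and 1.39, and cluster 1 was farthest, with ratios of 2.62 and 2.37. With 20.4% of mdx macrophages the cluster held 34.2% of their UMIs, and with 8.47% of cKO macrophages it held 15.3%. It supplied 96 of the 138 mdx macrophages in the top 10% by UMIs (69.6%, 61.2 to 77.1) and 188 of 478 in cKO (39.3%, 34.9 to 43.9). Depth moved with cluster membership in both libraries, and its part in the scores was not tested.

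S and G2M cells hardly differed in UMIs or genes. Called S, mdx members had a median of 15420 UMIs (12057 and 19520) and 3622 genes (3139 and 4100), while those called G2M had 15698 (12022 and 20565) and 3612 (3227 and 4111). In cKO the S cells had 10513.5 UMIs (7880 and 14618) and 3101.5 genes (2641 and 3705), and the G2M cells had 9869 (6992 and 14297) and 3014 (2523 and 3767). The ratio of S to G2M medians was 0.982 in mdx and 1.07 in cKO for UMIs, opposite in direction, and 1.00 and 1.03 for genes. By UMI quintiles of the cluster, S calls made up 36.8% to 53.6% in mdx and 38.3% to 53.1% in cKO, with no steady order and with intervals that overlapped.

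Between the genotypes, the mdx median of UMIs was 1.47 times that of cKO in S cells and 1.59 times in G2M cells. The other macrophage clusters had ratios of 1.33 to 1.63. The library difference in depth was therefore not limited to cluster 11, and cells could not be thinned to equal depth without counts per gene. Within the cluster, Spearman's rho of UMIs with the higher score was -0.0652 over 281 mdx cells and 0.0572 over 405 cKO cells. With the G2M score it was -0.0224 and 0.0254, and with the S score 0.107 and 0.228, so the S score moved weakly with depth, more so in cKO.

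A small tail of members had few UMIs. Under 2000 UMIs lay 4 mdx cells and 18 cKO cells, with 503 to 786 genes in mdx and 378 to 1013 in cKO. Of these, 1 and 8 were called S. Without them the S share was 43.0% in mdx and 47.0% in cKO.

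**Figure D3:**
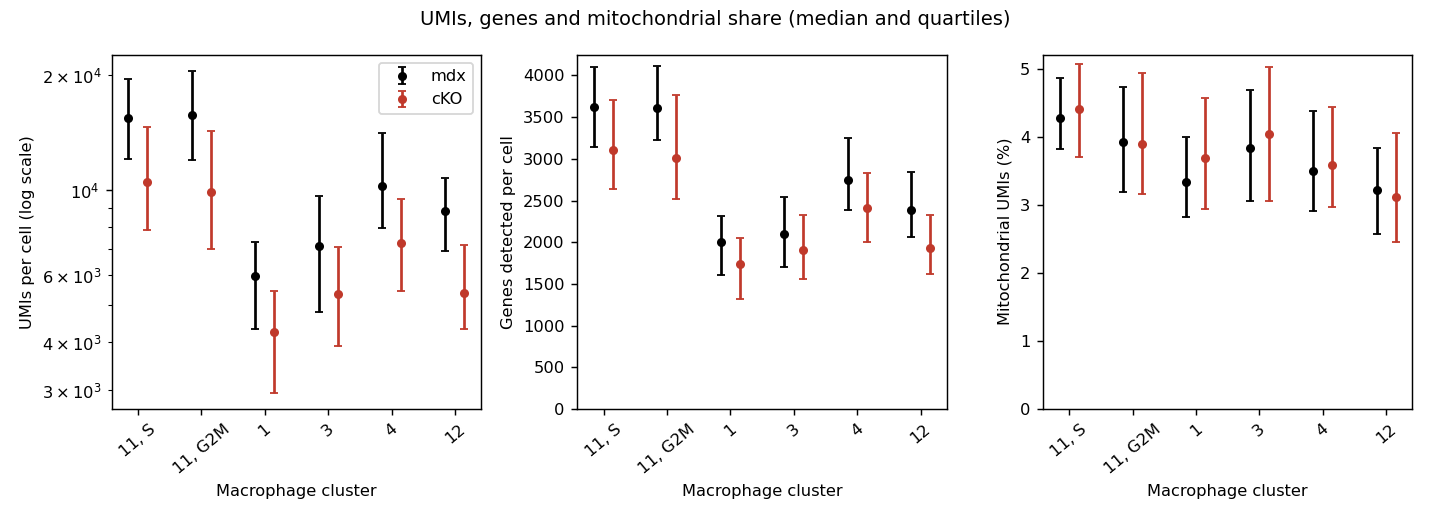
UMIs per cell (log scale), genes detected and mitochondrial share of UMIs (y axes) for S and G2M cells of cluster 11 and for macrophage clusters 1, 3, 4 and 12 (x axis), black for mdx and red for cKO, as medians with bars for the quartiles over cells. Cluster 11 has the highest UMIs and genes in each library, with S and G2M cells at about the same level, and its S cells have the highest median mitochondrial share, 4.27% and 4.40%.

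Members also held more genes than other macrophages of like depth. Within 10 bins of UMIs, the median number of genes was divided by that of clusters 1, 3, 4 and 12. The geometric mean of this ratio over bins, weighted by members, was 1.09 in mdx (1.02 to 1.16 over the bins, above 1 in 10 of 10). In cKO it was 1.06 (0.921 to 1.12, above 1 in 9 of 10). The bin under 1 was the lowest in cKO, where the median was 2821 UMIs for members and 3436 for the others. In the bins with the highest ratios members were the deeper cells, at 6546 against 6120 UMIs in mdx and 5802 against 5559.5 in cKO. Each member was then set against the 15 other macrophages closest in UMIs, a comparison added after seeing the data that could be made for 216 mdx and 380 cKO members. Genes were 1.08 times as many in mdx (quartiles 1.02 and 1.13) and 1.07 times in cKO (1.02 and 1.10). The member exceeded its matches in 172 of 216 cases in mdx (79.6%) and 317 of 380 in cKO (83.4%). S and G2M cells were alike here, with ratios of 1.08 and 1.09 in mdx and 1.07 and 1.07 in cKO. Members left unmatched, 65 in mdx and 25 in cKO, had too few other macrophages near their depth.

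**Figure D4:**
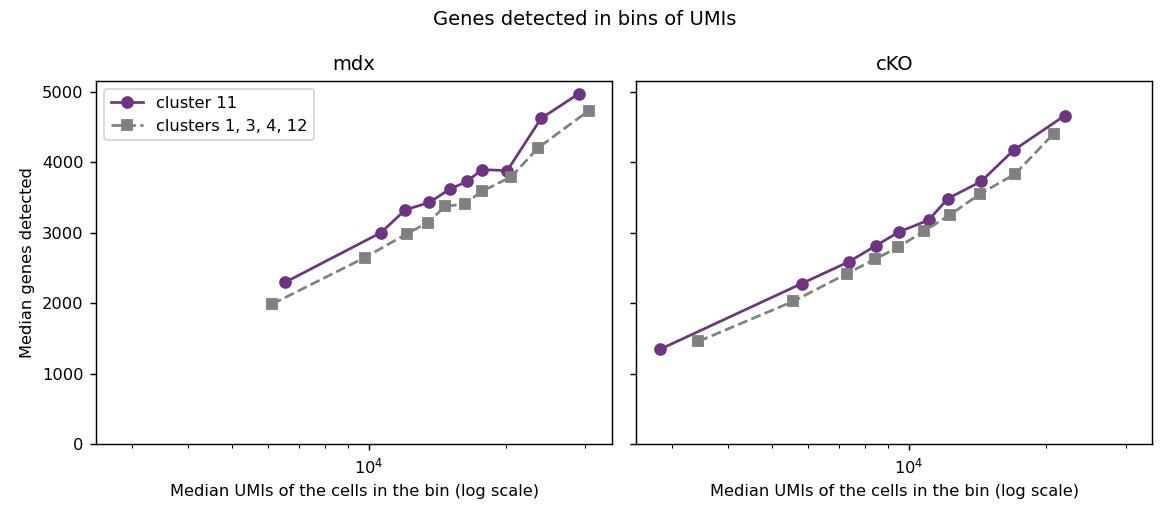
Median genes detected (y axis) against median UMIs (x axis, log scale) in 10 bins of equal numbers of cluster 11 cells, for cluster 11 (purple) and for macrophage clusters 1, 3, 4 and 12 (grey), in mdx and cKO. Cluster 11 holds more genes in every bin in mdx and in 9 of 10 in cKO.

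The mitochondrial share of UMIs was higher in S than in G2M cells of the cluster. Medians were 4.27% (quartiles 3.81 and 4.86) for S and 3.93% (3.18 and 4.73) for G2M cells in mdx. In cKO they were 4.40% (3.70 and 5.08) and 3.89% (3.16 and 4.93). The ratio of S to G2M medians was 1.09 in mdx and 1.13 in cKO, and the quartile ranges overlapped. S cells had the higher median in 5 of 5 UMI quintiles of the cluster in mdx and in 4 of 5 in cKO, the top quintile being the exception there (4.29% for S and 4.46% for G2M cells). In mitochondrial UMIs per cell the medians were 725 for S and 612 for G2M cells in mdx, and 460.5 and 366 in cKO.

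Along the S score minus the G2M score, the share was lowest at the G2M end and did not rise steadily beyond it. From the quintile of cells furthest to the G2M side to the quintile furthest to the S side, the medians in mdx were 3.65%, 3.90%, 4.15%, 4.48% and 4.09%. In cKO they were 3.72%, 4.12%, 4.04%, 4.33% and 4.36%. Spearman's rho of the mitochondrial share with the score difference was 0.188 over mdx cells and 0.151 over cKO cells, a weak relation between values that come from the same UMIs. Cluster 13 showed the same order, with 2.02% in S and 1.71% in G2M cells of mdx and 2.42% and 1.79% in cKO.

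**Figure D5:**
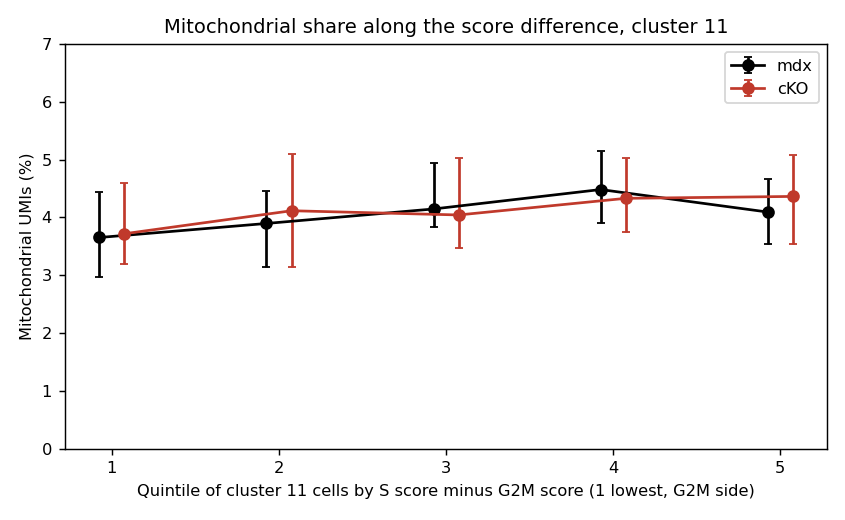
Mitochondrial share of UMIs in percent (y axis) in quintiles of cluster 11 cells ordered by S score minus G2M score (x axis, 1 being furthest to the G2M side), black for mdx and red for cKO, as medians with bars for the quartiles over cells. The lowest median is in the quintile at the G2M end in both libraries, at 3.65% and 3.72%, and the quartile bars overlap between quintiles.

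As a whole the cluster had a median mitochondrial share of 4.08% (mdx) and 4.12% (cKO), and the other macrophage clusters had 3.45% and 3.69%. Cluster 3 came nearest, with 3.84% and 4.04%, and cluster 12 was lowest, with 3.22% and 3.12%. Within UMI quintiles of the cluster its median was also the higher, except in the lowest quintile of cKO. There it was 3.65% for members and 3.68% for the other macrophages, with 4.01% in S and 3.39% in G2M cells. Against the 15 other macrophages nearest in UMIs, S cells had 1.20 times the share in mdx (quartiles 1.05 and 1.40) and 1.17 times in cKO (0.996 and 1.37). For G2M cells the ratio was 1.09 (0.854 and 1.33) and 1.04 (0.820 and 1.30). S cells exceeded their matches in 78 of 96 cases in mdx (81.3%, 72.0 to 88.5) and 133 of 181 in cKO (73.5%, 66.4 to 79.8). For G2M cells this held in 75 of 120 (62.5%, 53.2 to 71.2) and 109 of 199 (54.8%, 47.6 to 61.8). The same other macrophages could serve as matches of many members. The cases are therefore not independent, and no test is read from these intervals. The difference from other macrophages of like depth was thus larger for S cells in each library, and the cause was not tested.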

How the data were processed

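Mononucleated muscle cells were profiled with a 10x Genomics 3' kit, 1 library per genotype. Cell Ranger 7 and mm10 are listed in the submitters' processing notes, and the methods name Seurat for normalization and clustering. The table deposited by the authors holds raw UMI counts and gene numbers per cell. Its deposited mitochondrial fraction of UMIs was turned into percent here. The S and G2M score columns deposited by the authors carry Seurat's names, and their scoring is not described in the sources used here. Cluster numbers come from a resolution of 0.5, and 1 further cluster column was not used. Libraries Neg and Pos were read as Cre-negative (mdx) and Cre-positive (cKO).

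Total depth was 43185486 UMIs in mdx and 59240298 in cKO, and cells held at least 501 UMIs and at most 9.99% mitochondrial UMIs. The study's methods state a higher limit for the mitochondrial share, and an upper limit on the genes detected per cell. Members of the cluster had median genes above that upper limit, at 3619 in mdx and 3083 in cKO. The cells used here therefore do not follow the stated gene filter, and the reason was not tested. Exact (Clopper-Pearson) 95% intervals, log intervals for ratios of shares, medians and quartiles came from SciPy 1.17.1, NumPy 2.4.6 and pandas 2.3.3 under Python 3.11.15. Matplotlib 3.10.9 drew the figures. The interval of a difference of shares used the normal approximation. Genes were compared in UMI bins with at least 5 cells on each side. The nearest 15 cells had to lie within 0.1 in log2 UMIs. The intervals and matched ratios were tested on simulated data. No hypothesis test was run, since the mice cannot be told apart. The members, the score threshold of 0.2 and the alternatives were chosen with earlier results of these data known. By the rule for named genes, no gene has a value here.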

Additional observations from a re-analysis of the deposited data

How the results depend on the processing

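Of 112 alternative values for 26 results, 99 stayed within the counting interval (for gene ratios, the range over bins) of the value reported and 13 lay outside it. Keeping calls only where the higher score exceeded 0.3 lowered the S share of all members to 31.3% in mdx and 36.8% in cKO, as 42 and 52 members lost their call, and raised the G2M cells per S cell to 1.72 in mdx and 1.37 in cKO. Of the calls kept, S made up 36.8% of 239 in mdx and 42.2% of 353 in cKO. Without the 5% of macrophages with the most UMIs, median UMIs were 8958 in S and 8325.5 in G2M cells of cKO and 14209 in G2M cells of mdx, and median genes were 2842, 2757 and 3427, since that step removes the largest cells by construction. The mean in place of the median gave 11150 UMIs for G2M cells of cKO. The share of high-scoring macrophages lying in cluster 11 was 86.0% in mdx and 73.0% in cKO at a threshold of 0.1, and 93.4% in cKO at 0.3. The ratio of cKO to mdx shares ranged from 1.06 to 1.18 for S and from 0.910 to 0.953 for G2M over its alternatives. Neither crossed 1, but the alternatives reuse the same cells, and the intervals of both main ratios include 1. The comparison of UMIs among G1 cells alone gave no value, as cluster 11 holds 0 such cells. The minimum of 2000 UMIs and the 15 nearest cells were chosen after seeing the data. No paired analysis was possible because each genotype has 1 library. With 1 library per genotype, differences between mice, preparation and depth cannot be told apart from genotype, and expression values of single genes were not analysed here.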
